A study of Mus musculus with 12 samples.

Results

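The unfolded protein response and endoplasmic reticulum (ER) chaperone genes are described here in a mouse model of acute myeloid leukaemia. The set held 32 genes, chosen by symbol. All 32 were among the 24310 features of the files, and 31 passed the filter on low values, which asked for at least 1 RPKM in at least 4 of 12 libraries. RPKM corrects a read count for transcript length and for the mapped reads of its library. The set was read in 4 role classes: 14 chaperones and folding enzymes of the ER lumen, 8 genes of ER-associated degradation and of the translocon, 4 genes made up of the 3 stress sensors and Xbp1, and 6 genes of the ATF4 branch. The study measured bulk RNA of CMM cells, a GFP-carrying leukaemia line that the series title ties to inv(16), after transfer into C57BL/6 mice by the intravenous route. There were 3 labelled groups of 4 libraries each: PBS, the vehicle; CpG-scrODN, a CpG oligonucleotide joined to a scrambled sequence; and CpG-STAT3dODN, the same kind of CpG oligonucleotide joined to a decoy that binds the transcription factor STAT3. CpG DNA is a ligand of the receptor TLR9. All mice were engrafted, received 3 intravenous injections on alternate days from about 1% of GFP+ cells in blood, and had the spleen taken 1 day after the last injection.

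Several features of the samples limit what a group can stand for. The cells were enriched for c-Kit with antibody-coupled beads, so host c-Kit+ spleen cells and carried-over cells could be present. The design text speaks of sorted GFP+ and c-Kit+ cells, while the extraction protocol names only the c-Kit enrichment. The labels give no age or sex of the mice, and nothing in them says that 1 library is 1 mouse, so the p-values rest on a spread between libraries that could be technical. In all 12 files the header names another group than the label. The libraries labelled PBS are headed DEC, those labelled CpG-scrODN are headed PBS, and those labelled CpG-STAT3dODN are headed SCR. Groups are named by their labels throughout, and no difference is assigned to a treatment.

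The unfolded protein response is the programme by which a cell adjusts its ER to the load of proteins folding there. IRE1 (Ern1) splices Xbp1 messenger RNA, ATF6 is cut in the Golgi to release a transcription factor, and both XBP1 and ATF6 raise ER chaperones and degradation genes. PERK (Eif2ak3) phosphorylates eIF2 and so favours translation of ATF4, which raises amino acid synthesis, Ddit3 (CHOP), Trib3 and Chac1. ATF4 is also reached through other eIF2 kinases that do not sense the ER, so its targets and the chaperones need not move together. Plasma cells and other secretory cells carry high levels of the chaperones and of Xbp1.

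The depth of the libraries, estimated from single-transcript genes, was 31410000 to 36170000 reads, at which an RPKM of 1 is about 31.4 reads per kilobase. Among the leukaemia progenitor markers, Kit lay between 10.5 and 51.1 RPKM and Mpo between 17.2 and 119 RPKM. Markers of B cells differed between the labelled groups: the summed RPKM of the 15 B cell genes in the files was 211 to 798 in PBS, 11.6 to 30.2 in CpG-scrODN and 27.4 to 124 in CpG-STAT3dODN. The summed plasma cell markers were 65.0 to 111 in PBS, 13.1 to 28.3 in CpG-scrODN and 28.4 to 34.4 in CpG-STAT3dODN. In limma, 14 of 14 B cell genes and 2 of 5 plasma cell genes tested were lower in CpG-scrODN than in PBS, and 11 and 1 were lower in CpG-STAT3dODN. The plasma cell receptor gene Tnfrsf17 was at most 0.0726 RPKM in any library. Of 8 T cell genes listed, 3 passed the filter, and all 3 were lower than in PBS in both other groups. A gene that reaches 1 RPKM only in the 4 PBS libraries passes the filter. The B cell, plasma cell and T cell counts may therefore be favoured by the filter. The summed T cell markers were 16.4 to 56.1, 2.39 to 4.76 and 2.68 to 5.75 RPKM in PBS, CpG-scrODN and CpG-STAT3dODN. The summed mature neutrophil markers were 1720 to 5161, 527 to 2206 and 1861 to 4165 RPKM in the same order. The summed leukaemic progenitor markers were 506 to 629, 263 to 341 and 339 to 504 RPKM in the same order, and 5 of 11 of these genes were lower in CpG-scrODN than in PBS in limma. A pair of libraries stood apart. The immediate-early gene Fos was at 12.9 RPKM in PBS 4 and 5.91 RPKM in CpG-STAT3dODN 4, and between 486 and 1160 RPKM in the other 10 libraries. These 2 libraries of low Fos belong to different labelled groups, and values with and without them are given where they matter.

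The promoters of the set are shown first, because they carry the sequence elements by which the branches are usually told apart. RefSeq promoters of the GRCm38.p6 assembly, 250 bases before to 50 bases after the start, were found for 28 of the 32 genes. Hyou1, Manf, Derl1 and Atf6 had no entry. Each promoter was searched on both strands for 4 motifs. The ER stress element (ERSE, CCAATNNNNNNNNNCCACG) was present in 7 of 28 promoters (25.0%) and in 0.137% of the promoters of all 27025 genes. The 7 were Hspa5, Hsp90b1, Dnajc3, Pdia6, Canx and Creld2 among the chaperones and Syvn1 among the degradation genes. ERSE-II (ATTGG and CCACG with 1 base between them) was present in Dnajb11 and Herpud1, 7.14% of the set and 0.0444% of all genes. The XBP1-type element (UPRE, TGACGTG) was found in Hspa5 alone, 3.57% of the set and 2.22% of all genes. The C/EBP-ATF element bound by ATF4 (CARE, TGATGNAA) was found in Herpud1, Trib3, Asns and Chac1, 14.3% of the set and 4.51% of all genes. No promoter of the ATF4 branch held ERSE or ERSE-II, and no chaperone promoter held CARE. No matches within a promoter overlapped. A match is a stretch of letters and not a measured binding site. The chaperone and degradation classes were drawn up as ATF6/XBP1 targets, and the ATF4 branch by its known genes. The shares beside those of all genes therefore describe that choice and are no test.

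The 8 ERSE matches follow, 5′ to 3′ on the strand of the gene, with the match in capitals. The search fixed the CCAAT and CCACG boxes, and the stretches show how the spacer between them varied from gene to gene. In Creld2 and in the second Hsp90b1 match the element reads on the opposite strand, so the capitals run CGTGG to ATTGG.
Hspa5, chr2:34772020-34772048, plus strand: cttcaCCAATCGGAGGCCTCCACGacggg
Hsp90b1, first match, chr10:86705633-86705661, minus strand: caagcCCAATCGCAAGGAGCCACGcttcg
Hsp90b1, second match, chr10:86705528-86705556, minus strand: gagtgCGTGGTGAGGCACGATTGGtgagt
Canx, chr11:50325795-50325823, minus strand: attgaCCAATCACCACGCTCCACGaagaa
Pdia6, chr12:17266486-17266514, plus strand: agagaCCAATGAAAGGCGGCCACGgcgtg
Dnajc3, chr14:118937822-118937850, plus strand: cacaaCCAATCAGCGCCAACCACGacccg
Creld2, chr15:88819515-88819543, plus strand: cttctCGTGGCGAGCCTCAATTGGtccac
Syvn1, chr19:6046527-6046555, plus strand: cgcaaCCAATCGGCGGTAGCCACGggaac

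Herpud1 carried both an ERSE-II and a CARE match, and Chac1 and Asns are shown as the ATF4 branch genes with a CARE match upstream of the start. In Herpud1 and Chac1 the CARE match reads on the opposite strand.
Herpud1, ERSE-II, chr8:94386368-94386396, plus strand: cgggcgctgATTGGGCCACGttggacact
Herpud1, CARE, chr8:94386306-94386335, plus strand: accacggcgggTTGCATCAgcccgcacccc
Chac1, CARE, chr2:119351038-119351067, plus strand: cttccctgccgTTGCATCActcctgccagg
Asns, CARE, chr6:7693214-7693243, minus strand: tcccagccacaTGATGAAActtcccgcacg

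**Figure D1:**
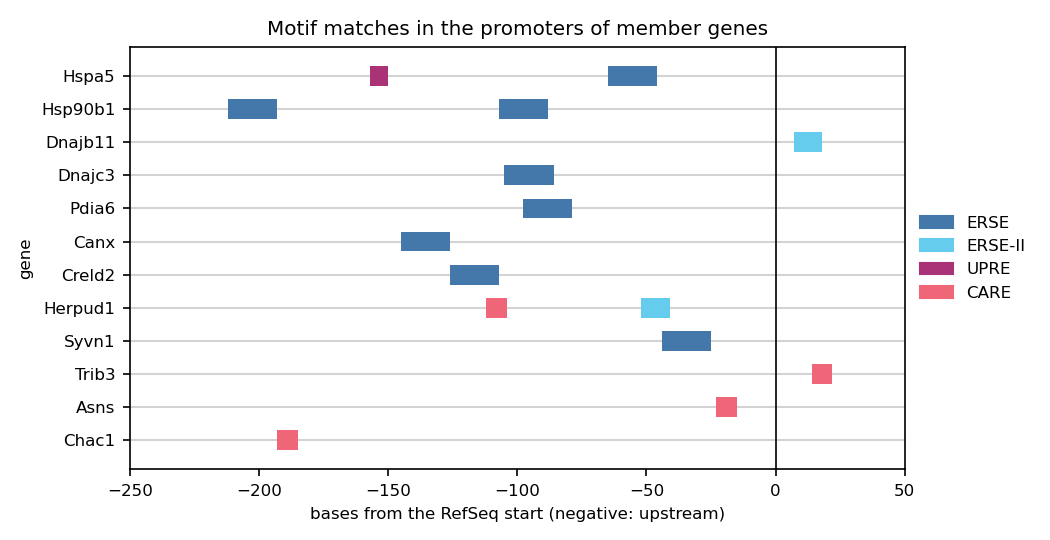
Motif matches in the promoters of the 12 member genes with any match, by distance in bases from the RefSeq start (negative values are upstream). Bars mark ERSE, ERSE-II, UPRE and CARE. ERSE bars sit in 6 chaperone genes and Syvn1, CARE bars in Herpud1 and in 3 genes of the ATF4 branch.

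Between the labelled groups few genes of the set differed. With a limma model on log2(RPKM + 1) over all 12 libraries, 2 of 31 genes were lower in CpG-scrODN than in PBS and 0 were higher at a Benjamini-Hochberg adjusted p under 0.05. They were Dnajb9, an ER-lumen J-domain co-chaperone, and Syvn1, the ubiquitin ligase of ER-associated degradation. Over all 10886 genes tested, 4.04% were called lower and 0.110% higher in that comparison. At an unadjusted p under 0.05, 5 of 31 genes were lower (Dnajb9, Syvn1, Pdia4, Atf6 and Eif2ak3) and 0 were higher, against 15.6% of all genes in either direction. The 4 libraries of one group lay wholly below the 4 of the other for 4 genes (Dnajb9, Syvn1, Sel1l and Eif2ak3) and wholly above for 0, beside 10% and 3.83% of all genes. These shares lie near those of all genes, so the counts are no result about the set. The median log2 difference was -0.17 over the 31 genes and -0.05 over all genes tested. Below 0 were 27 of the 31 differences, beside 6526 of 10886 over all genes tested, and these sign counts were not compared by a test.

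By class, the median difference of CpG-scrODN from PBS was -0.12 in the chaperones and -0.21 in the degradation genes. It was -0.30 in the sensors with Xbp1 and -0.41 in the ATF4 branch. These medians moved with single PBS libraries. Without PBS 4 they were -0.17, -0.09, -0.13 and -0.31, and the chaperone median was -0.04 without PBS 1 and -0.24 without PBS 3. CpG-STAT3dODN and PBS gave 0 called genes of the set in limma, with 1 (Dnajb9, lower) at an unadjusted p under 0.05. Of all genes, 1.83% were called lower, 0.0276% called higher, and 9.40% had an unadjusted p under 0.05. Dnajb9 was the single gene whose groups did not overlap, and it was lower, beside 4.23% of all genes lower and 0.818% higher. The class medians were -0.04, -0.02, 0.01 and -0.22 in the same order, and the median of all genes was -0.01. Leaving out 1 library turned the sign of each: the medians were -0.10, 0.07, 0.11 and 0.19 without PBS 4, and 0.0030, -0.12, -0.09 and -0.50 without CpG-STAT3dODN 4. Both comparisons use the same 4 PBS libraries, so their values are not independent of each other.

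CpG-STAT3dODN and CpG-scrODN also gave 0 called genes of the set in limma, where 0% of all genes were called in either direction. At an unadjusted p under 0.05, Syvn1 and Xbp1 were higher in CpG-STAT3dODN, against 2.71% of all genes. Without overlap of the 4 libraries of each group, Syvn1, Sel1l and Eif2ak3 were higher in CpG-STAT3dODN and Hspa5 was lower, beside 3.38% of all genes higher and 0.873% lower. Over all genes tested the median difference was 0.03. The class medians were 0.07 in the chaperones, 0.21 in the degradation genes, 0.20 in the sensors with Xbp1 and 0.31 in the ATF4 branch. Without CpG-STAT3dODN 4 they were 0.14, 0.12, 0.09 and -0.04, and the chaperone median was 0.0033 without CpG-STAT3dODN 3. The counts of called genes depended on the weighting of the libraries: with library quality weights they were 5, 3 and 2 of 31 in the 3 comparisons in the order given. Of all genes tested, 16.6%, 11.5% and 5.58% were then called, so these counts too lie near the background.

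**Figure D2:**
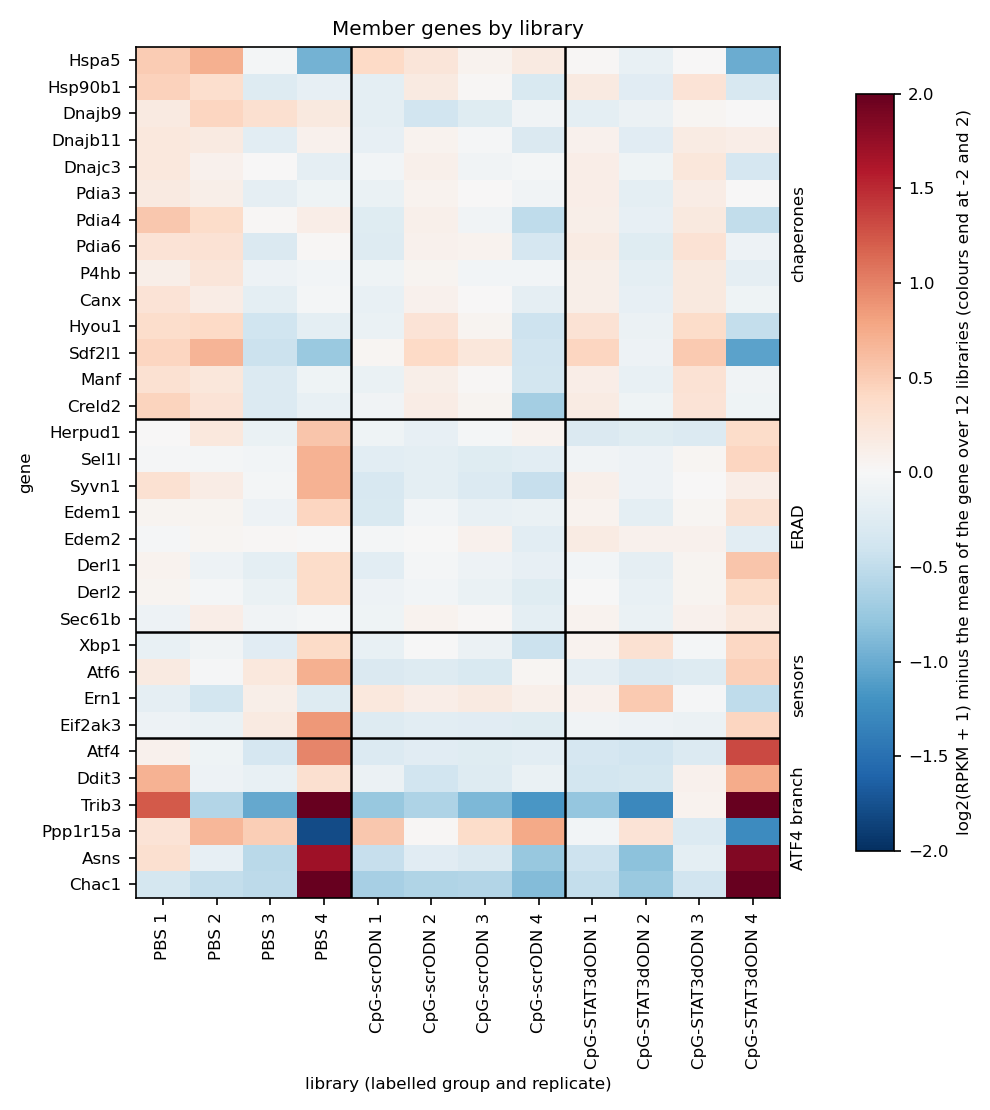
Each of the 32 genes (rows, in 4 role classes) in each of the 12 libraries (columns, by labelled group and replicate). Colour is log2(RPKM + 1) minus the mean of the gene over the 12 libraries, ending at -2 and 2. The columns of PBS 4 and CpG-STAT3dODN 4 are blue in Hspa5, Sdf2l1 and Ppp1r15a and red in Atf4, Trib3, Asns and Chac1.

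The chaperones held the largest summed level of the 4 classes. Their summed RPKM was 1035 to 1682 in PBS, 1195 to 1415 in CpG-scrODN and 986 to 1437 in CpG-STAT3dODN. The ratio of the highest to the lowest library ran from 1.3 for Pdia3, a disulphide isomerase of glycoproteins, to 3.46 for Sdf2l1, a partner of the BiP chaperone cycle. Within the class, 1 of 14 genes was called, lower in CpG-scrODN than in PBS, and 0 in the other 2 comparisons. Of all genes tested, 4.04% were called lower in CpG-scrODN than in PBS. In the other 2 comparisons 1.86% and 0% were called.

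Dnajb9 (chr12:44205897-44210068, GRCm38) encodes ERdj4, which targets misfolded proteins for degradation and holds IRE1 in check. It was at 7.67, 9.24, 8.47 and 7.71 RPKM in the PBS libraries. In CpG-scrODN it was at 5.69, 4.85, 5.47 and 6.30 RPKM, and in CpG-STAT3dODN at 5.68, 6.03, 6.84 and 6.70 RPKM. Every PBS library lay above all 8 others, and the CpG-scrODN and CpG-STAT3dODN libraries overlapped. The mean was 8.27 ± 0.741 (SD, n = 4) in PBS, 5.58 ± 0.598 (SD, n = 4) in CpG-scrODN and 6.31 ± 0.551 (SD, n = 4) in CpG-STAT3dODN. The log2 difference of CpG-scrODN from PBS was -0.50 (SE 0.09, 95% interval -0.70 to -0.29), with a limma adjusted p of 0.00968. The difference of CpG-STAT3dODN from PBS was -0.34 (95% interval -0.55 to -0.14), with a limma adjusted p of 0.121.

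The Dnajb9 call held without both libraries of low Fos, with a difference of -0.53 and a limma adjusted p of 0.00721, and without each of the 12 libraries in turn. It was lost with quantile normalization, where the difference was -0.39 and the limma adjusted p 0.061. The summed markers of B cells, plasma cells, T cells and leukaemic progenitors were also lower in CpG-scrODN than in PBS, as given above. Of the 11 leukaemic progenitor genes, 7 differences were below 0 and 4 above. All 8 mature neutrophil differences were below 0. The summed mast cell and basophil markers were 490 to 2335 RPKM in PBS and 2029 to 3706 RPKM in CpG-scrODN. Of their 5 differences 3 were above 0, and the 2 below were called in limma. The summed red pulp macrophage and erythroid markers overlapped between the 2 groups. The part of these cell types in the Dnajb9 difference was not tested. Within PBS the B cell gene Cd79a was highest in PBS 4, at 187 RPKM against 45.0 to 66.4 in PBS 1 to 3. Dnajb9 in PBS 4 was at 7.71 RPKM, within the range of the other PBS libraries. PBS 4 is also a library of low Fos, and the relation of Dnajb9 to B cell content was not tested. In a bulk sample, fewer cells of a type and less RNA per cell cannot be told apart.

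Hspa5 (chr2:34772090-34776529), the central Hsp70 chaperone BiP and the usual index of ER load, was among the most abundant genes of the set. Its PBS libraries were at 519, 595, 354 and 188 RPKM. The CpG-scrODN libraries were at 479, 430, 383 and 414 RPKM, and the CpG-STAT3dODN libraries at 370, 329, 367 and 183 RPKM. All 4 CpG-STAT3dODN libraries lay below all 4 CpG-scrODN libraries, and PBS spanned both. The lowest values were in the 2 libraries of low Fos, and the lowest of the other 10 was 1.74 times the higher of them. The CpG-STAT3dODN minus CpG-scrODN difference was -0.50 (95% interval -1.21 to 0.21), with a limma adjusted p of 0.96. The CpG-scrODN minus PBS difference was 0.16 (95% interval -0.54 to 0.87), with a limma adjusted p of 0.827. Hspa5 overlaps Rabepk in the annotation, and the strand used in counting is not given in the sources used here.

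Pdia4, a disulphide isomerase, had PBS libraries at 49.0, 43.3, 33.9 and 37.0 RPKM. It was at 28.3, 35.9, 31.9 and 23.3 RPKM in CpG-scrODN and at 36.2, 29.8, 38.4 and 23.5 RPKM in CpG-STAT3dODN. The PBS libraries tended high but overlapped both other groups. The differences from PBS were -0.44 (95% interval -0.82 to -0.06) for CpG-scrODN and -0.35 (95% interval -0.73 to 0.03) for CpG-STAT3dODN, with limma adjusted p-values of 0.241 and 0.604.

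Creld2, a secreted ER stress protein with an ERSE in its promoter, was at 41.0, 36.3, 24.5 and 26.9 RPKM in PBS. It was at 28.3, 33.2, 31.1 and 18.4 RPKM in CpG-scrODN and at 33.6, 28.1, 36.3 and 28.1 RPKM in CpG-STAT3dODN. The 3 groups overlapped, and the differences were -0.21, -0.01 and 0.20 for CpG-scrODN minus PBS, CpG-STAT3dODN minus PBS and CpG-STAT3dODN minus CpG-scrODN. The limma adjusted p-values were 0.638, 1 and 0.96.

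The other 10 chaperones differed little between groups. Their differences of CpG-scrODN from PBS ran from -0.18 for Pdia6, a disulphide isomerase, to 0.08 for Sdf2l1. Mean RPKM in PBS, CpG-scrODN and CpG-STAT3dODN was 170, 149 and 156 for Hsp90b1 (the ER Hsp90, GRP94). It was 207, 201 and 209 for Pdia3, and 93.3, 86.2 and 91.5 for Canx (calnexin, the lectin chaperone). The intervals of these genes were wide enough to hold moderate changes: for Hsp90b1 the CpG-scrODN minus PBS interval was -0.58 to 0.25. Among the 14 chaperones, Hspa5, Dnajc3 (P58IPK, a co-chaperone that also inhibits eIF2 kinases) and Sdf2l1 were lowest in the 2 libraries of low Fos, and 0 of 14 were highest in both. Over all genes kept by the filter, 18.8% were lowest and 23.4% highest in both.

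**Figure D3:**
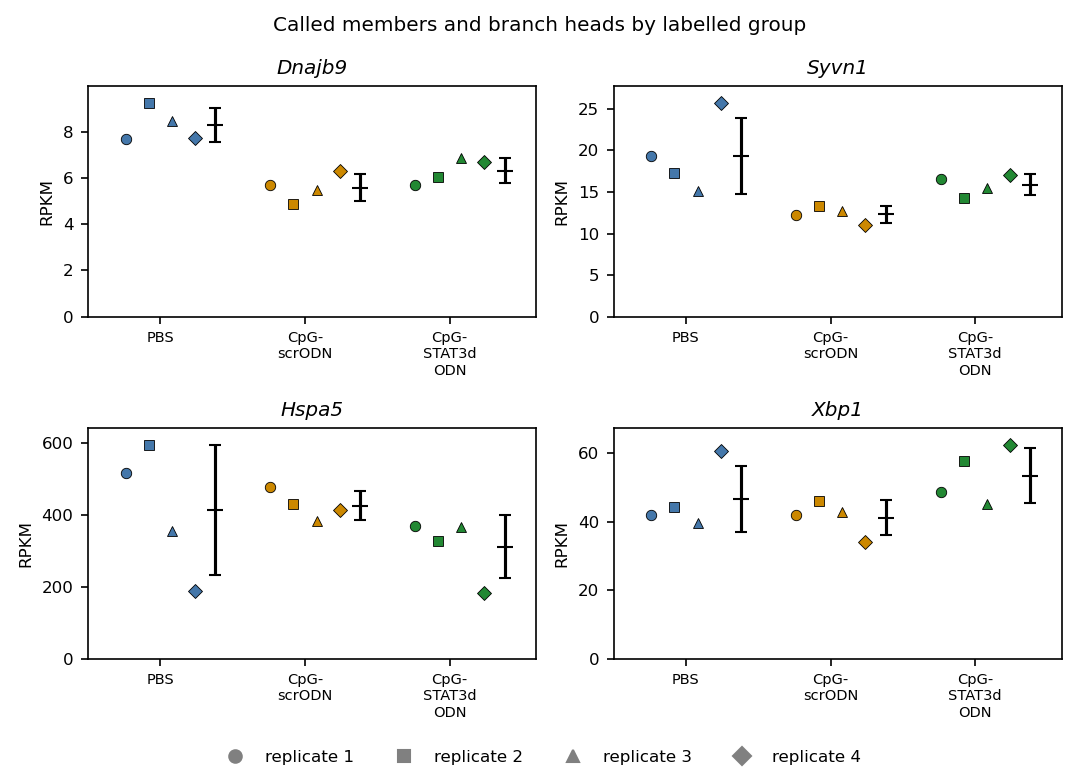
RPKM of Dnajb9, Syvn1, Hspa5 and Xbp1 in each library by labelled group, with marker shape for the replicate number and mean ± SD (n = 4) at the right of each group. Every PBS value of Dnajb9 (7.67 to 9.24) and of Syvn1 (15.1 to 25.7) lies above every CpG-scrODN value, and Hspa5 is lowest in replicate 4 of PBS and of CpG-STAT3dODN.

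The ER-associated degradation genes held the second called gene. Syvn1 (chr19:6046576-6053718), which encodes HRD1, was at 19.3, 17.2, 15.1 and 25.7 RPKM in PBS. It was at 12.2, 13.3, 12.7 and 10.97 RPKM in CpG-scrODN and at 16.6, 14.3, 15.5 and 17.1 RPKM in CpG-STAT3dODN. All CpG-scrODN libraries lay below all others, and PBS and CpG-STAT3dODN overlapped. The means were 19.3 ± 4.57 (SD, n = 4), 12.3 ± 0.99 (SD, n = 4) and 15.9 ± 1.26 (SD, n = 4). The log2 difference of CpG-scrODN from PBS was -0.59 (SE 0.14, 95% interval -0.89 to -0.29), with a limma adjusted p of 0.0295. CpG-STAT3dODN differed from PBS by -0.25 (95% interval -0.54 to 0.05, limma adjusted p 0.704) and from CpG-scrODN by 0.34 (95% interval 0.05 to 0.64, limma adjusted p 0.96).

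The Syvn1 call held without both libraries of low Fos, with a difference of -0.45 and a limma adjusted p of 0.0171. It was lost without PBS 1 and without any single CpG-scrODN library, with limma adjusted p-values of 0.0578 to 0.0964, and kept its direction in each. It was also lost when only the 2 groups compared were fitted. Syvn1 overlaps Mrpl49 in the annotation, so reads of the 2 genes may be mixed. Syvn1 was highest in PBS 4, the library with the most Cd79a and 1 of the 2 of low Fos, and the part of B cells in the difference was not tested.

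Sel1l, the partner that holds HRD1 in place, was at 11.4, 11.2, 11.1 and 19.4 RPKM in PBS. It was at 9.87, 10.04, 9.67 and 9.90 RPKM in CpG-scrODN and at 11.02, 10.7, 11.9 and 16.0 RPKM in CpG-STAT3dODN. The CpG-scrODN libraries lay below all others, and the highest values were in PBS 4 and CpG-STAT3dODN 4. The differences were -0.36 from PBS and 0.29 between CpG-STAT3dODN and CpG-scrODN, with limma adjusted p-values of 0.341 and 0.96.

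Herpud1, which gathers the degradation complex, was at 49.4, 57.0, 44.8 and 72.6 RPKM in PBS. It was at 45.9, 43.4, 47.6 and 51.5 RPKM in CpG-scrODN and at 39.8, 41.5, 40.5 and 63.6 RPKM in CpG-STAT3dODN. The groups overlapped, and again the libraries of low Fos were highest. The differences from PBS were -0.22 for CpG-scrODN and -0.27 for CpG-STAT3dODN, with limma adjusted p-values of 0.558 and 0.792.

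Of the other 5 degradation and translocon genes, Edem1, a mannosidase-like factor, had the largest difference from PBS in CpG-scrODN, -0.27, with a limma adjusted p of 0.351. Edem2 lay between 18.3 and 24.1 RPKM in all 12 libraries. Sec61b, a subunit of the translocon channel, lay between 107 and 142 RPKM. Edem1, Derl1 and Derl2 (derlins, parts of the retrotranslocation channel) were highest in the 2 libraries of low Fos, as were Herpud1 and Sel1l. That makes 5 of the 8 genes of the class, beside 23.4% of all genes kept by the filter.

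In the class of the stress sensors and Xbp1, Xbp1 (chr11:5520641-5525993) was the most abundant. It was at 41.9, 44.3, 39.6 and 60.7 RPKM in PBS. It was at 41.9, 46.1, 42.7 and 34.1 RPKM in CpG-scrODN and at 48.7, 57.7, 45.1 and 62.4 RPKM in CpG-STAT3dODN. The groups overlapped, with the highest values in CpG-STAT3dODN 4 and PBS 4. CpG-STAT3dODN exceeded CpG-scrODN by 0.37 (95% interval 0.04 to 0.69), with a limma adjusted p of 0.96 and an unadjusted p of 0.0314. These values are per gene and do not tell spliced from unspliced Xbp1, which is how IRE1 activity is read.

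Atf6 was at 12.04, 10.4, 12.4 and 18.0 RPKM in PBS. It was at 8.45, 8.60, 8.38 and 10.8 RPKM in CpG-scrODN and at 9.14, 8.42, 8.61 and 15.1 RPKM in CpG-STAT3dODN. PBS tended higher, with CpG-scrODN 4 above PBS 2. The differences from PBS were -0.48 (95% interval -0.89 to -0.06) and -0.34 (95% interval -0.76 to 0.08), with limma adjusted p-values of 0.243 and 0.719.

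Eif2ak3, which encodes PERK, was at 5.55, 5.40, 6.93 and 11.7 RPKM in PBS. It was at 4.86, 5.08, 4.95 and 4.92 RPKM in CpG-scrODN and at 5.67, 5.49, 5.43 and 8.41 RPKM in CpG-STAT3dODN. The CpG-scrODN libraries lay below all others, with a difference of -0.44 from PBS and a limma adjusted p of 0.318. Ern1 was the 1 gene of the 4 that was higher in CpG-scrODN than in PBS, by 0.33 (95% interval -0.06 to 0.72), with a limma adjusted p of 0.414. Xbp1, Atf6 and Eif2ak3, but not Ern1, were highest in the 2 libraries of low Fos.

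The ATF4 branch varied most between libraries. Of its 5 genes tested, 0 were called in any comparison of labelled groups in limma, with 0 at an unadjusted p under 0.05. Of all genes tested, 4.15%, 1.86% and 0% were called in the 3 comparisons, in the order given above. At an unadjusted p under 0.05 in limma the shares were 15.6%, 9.40% and 2.71%. With 5 genes, these counts of 0 are no result about the branch. Its summed RPKM was 469, 464, 400 and 615 in PBS. It was 415, 355, 396 and 450 in CpG-scrODN and 331, 354, 332 and 759 in CpG-STAT3dODN. The highest sums were in the 2 libraries of low Fos. The ratio of the highest to the lowest library ran from 2.26 for Ddit3 to 29.9 for Trib3 among the 5 genes tested.

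Atf4 (chr15:80255184-80257545), the transcription factor that names the branch, was at 166, 148, 124 and 311 RPKM in PBS. It was at 130, 134, 132 and 136 RPKM in CpG-scrODN and at 124, 120, 129 and 393 RPKM in CpG-STAT3dODN. The lower of the 2 libraries of low Fos was 1.87 times the highest of the other 10, which lay within 120 to 166 RPKM. The differences from PBS were -0.40 (95% interval -1.19 to 0.40) and -0.08 (95% interval -0.88 to 0.72), with limma adjusted p-values of 0.628 and 1.

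Asns, asparagine synthetase, is a direct ATF4 target with a CARE match just upstream of its start. It was at 65.2, 46.5, 35.5 and 170 RPKM in PBS. It was at 37.5, 44.3, 42.5 and 30.5 RPKM in CpG-scrODN and at 39.0, 29.0, 45.3 and 190 RPKM in CpG-STAT3dODN. The lower of the 2 libraries of low Fos was 2.61 times the highest of the other 10. The differences were -0.76, -0.22 and 0.54 for CpG-scrODN minus PBS, CpG-STAT3dODN minus PBS and CpG-STAT3dODN minus CpG-scrODN, with limma adjusted p-values of 0.548, 1 and 0.96.

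Trib3, a pseudokinase induced late in the branch, was at 16.8, 4.06, 2.76 and 50.5 RPKM in PBS. It was at 3.49, 3.95, 3.09 and 2.39 RPKM in CpG-scrODN and at 3.46, 2.10, 7.03 and 62.9 RPKM in CpG-STAT3dODN. The lower of the 2 libraries of low Fos was 3.00 times the highest of the other 10, which was PBS 1. The difference of CpG-scrODN from PBS was -1.46 (95% interval -3.52 to 0.61), at a limma adjusted p of 0.488, and it was -0.73 without both libraries of low Fos.

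Chac1, a glutathione-degrading enzyme downstream of ATF4, did not pass the filter and was not tested. It was at 13.8 RPKM in PBS 4 and 15.1 RPKM in CpG-STAT3dODN 4, and between 0.184 and 0.698 RPKM in the other 10 libraries. The lower of the 2 high values was 19.8 times the highest of the others. PBS 1, which had the third highest Trib3, was at 0.698 RPKM.

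Ddit3, which encodes CHOP, did not follow that split. It was at 32.8, 18.6, 17.9 and 25.1 RPKM in PBS. It was at 18.3, 15.2, 16.6 and 18.2 RPKM in CpG-scrODN and at 15.2, 15.5, 21.3 and 34.3 RPKM in CpG-STAT3dODN. The highest library was CpG-STAT3dODN 4, followed by PBS 1 and then PBS 4. Ddit3 overlaps Mbd6 and Mars1 in the annotation, and the strand used in counting is not given in the sources used here.

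Ppp1r15a, which encodes GADD34, the phosphatase subunit that reverses eIF2 phosphorylation, went the other way from Atf4. It was at 187, 246, 220 and 44.0 RPKM in PBS. It was at 225, 157, 201 and 263 RPKM in CpG-scrODN and at 149, 187, 129 and 64.5 RPKM in CpG-STAT3dODN. The 2 libraries of low Fos were the lowest, and the lowest of the other 10 was 2.0 times the higher of them. The differences from PBS were 0.51 and -0.24, with limma adjusted p-values of 0.642 and 1.

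**Figure D4:**
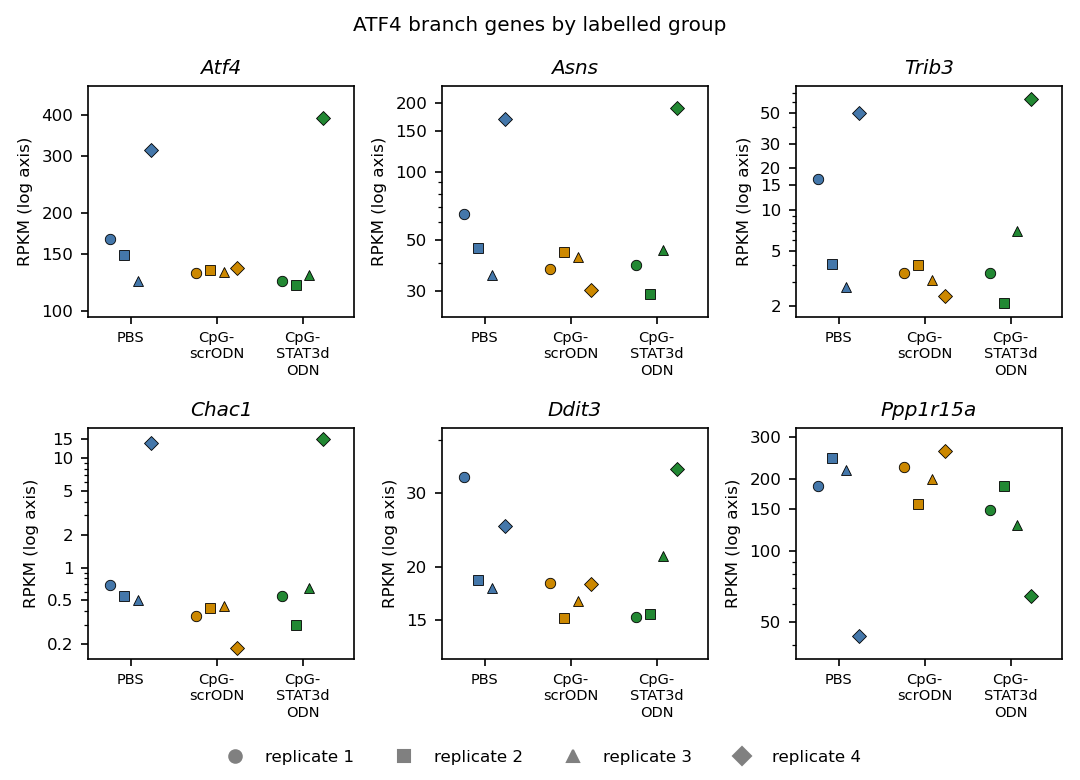
RPKM (log axis) of the 6 ATF4 branch genes in each library by labelled group, with marker shape for the replicate number. Replicate 4 of PBS and of CpG-STAT3dODN (diamonds) is above the other 10 libraries in Atf4, Asns, Trib3 and Chac1, below them in Ppp1r15a, and among the upper values in Ddit3.

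The class medians of the ATF4 branch depended on these 2 libraries. For CpG-STAT3dODN minus PBS the median over the 5 genes tested was -0.22. It was 0.19 without PBS 4, -0.50 without CpG-STAT3dODN 4 and -0.36 without both, and 0.07 without CpG-STAT3dODN 2. For CpG-STAT3dODN minus CpG-scrODN it was 0.31 with all libraries and -0.04 without both. For CpG-scrODN minus PBS it was -0.41 and -0.31. No direction of the branch between CpG-STAT3dODN and the other groups is therefore read from these data.

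Across the set, 12 of 32 genes (37.5%) were above the other 10 libraries in both libraries of low Fos, and 4 of 32 (12.5%) were below. Over all 10886 genes kept by the filter these shares were 23.4% and 18.8%. The counts above for the set and for the ATF4 branch include Chac1, which did not pass the filter, so the shares are not wholly alike. The libraries were picked for Fos and the set was chosen with earlier results known, so the shares are a description, with no test. The classes differed. Above in both were 0 of 14 chaperones and 5 of 8 degradation genes. So were 3 of 4 genes of the sensor and Xbp1 class and 4 of 6 ATF4 branch genes. In the same order, 3, 0, 0 and 1 were below. The 3 chaperones below were Hspa5, Dnajc3 and Sdf2l1, a share of 21.4% that lies near the 18.8% of all genes. In the ATF4 branch, Atf4, Trib3, Asns and Chac1 were above, Ppp1r15a was below and Ddit3 was neither. Of 19 immediate-early and heat shock genes, 10 were below the other 10 libraries in both and 0 above. Of 14 B cell and 3 T cell markers, 0 were above or below in both. Below in both were 3 of 5 mast cell and basophil, 3 of 7 red pulp macrophage and 3 of 8 mature neutrophil markers, with 0 above. Of 8 erythroid markers 1 was below and 0 above, and of 11 leukaemic progenitor markers 1 was above and 0 below. Of 5 plasma cell markers, 1 was above and 1 below. What sets these 2 libraries apart was not tested.

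Other genes of the same pathways were counted from lists. Of 41 other ER folding and entry genes tested, 1 was lower in CpG-scrODN than in PBS in limma (Ero1lb, an ER oxidase) and 0 were higher. Of 22 other degradation genes, 2 were lower (Derl3 and Ube2j1) and 0 higher, and Derl3 was also lower in CpG-STAT3dODN than in PBS. Of 32 other ATF4 and integrated stress response genes and of 25 sensor partners and eIF2 factors, 0 were called in any comparison by limma. At an unadjusted p under 0.05 in CpG-scrODN against PBS, 3 of the 32 and 1 of the 25 were found, against 15.6% of all genes. The called counts stand beside 4.04% of all genes called lower in that comparison. Between CpG-STAT3dODN and CpG-scrODN, 0 were called in all 4 lists.

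Derl3, a derlin of secretory cells, was at 3.78, 2.29, 2.52 and 1.82 RPKM in PBS. It was at 0.562, 0.379, 0.624 and 0.0863 RPKM in CpG-scrODN and at 0.534, 1.03, 0.918 and 0.364 RPKM in CpG-STAT3dODN. All PBS libraries lay above all others. The differences from PBS were -1.34 (SE 0.19) and -1.06 (SE 0.19), with limma adjusted p-values of 0.00163 and 0.0133. Outside PBS, only CpG-STAT3dODN 2 reached 1 RPKM. Derl3 thus passed the filter through the PBS libraries, where it was high, so the filter favoured a difference in this direction.

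Ube2j1, the ubiquitin-conjugating enzyme that works with HRD1, was at 5.39, 4.63, 4.27 and 11.1 RPKM in PBS. It was at 1.70, 1.47, 1.34 and 1.26 RPKM in CpG-scrODN and at 2.02, 1.61, 3.17 and 4.86 RPKM in CpG-STAT3dODN. The CpG-scrODN libraries lay below all PBS libraries, with a difference of -1.51 (SE 0.28) and a limma adjusted p of 0.00934. CpG-STAT3dODN 4 lay above PBS 2 and PBS 3.

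Ero1lb was at 6.43, 4.65, 6.13 and 15.4 RPKM in PBS. It was at 3.31, 2.81, 2.50 and 3.02 RPKM in CpG-scrODN and at 3.70, 3.33, 3.51 and 4.99 RPKM in CpG-STAT3dODN. The CpG-scrODN libraries lay below all PBS libraries, with a difference of -1.10 (SE 0.26) and a limma adjusted p of 0.0356. Like Syvn1, Ube2j1 and Ero1lb were highest in PBS 4, which was highest in Cd79a and is also a library of low Fos. All 3 genes were also highest within their group in the other library of low Fos, CpG-STAT3dODN 4. The plasma cell gene Jchain was at 24.8 to 46.9 RPKM in PBS, 0.165 to 7.84 RPKM in CpG-scrODN and 7.62 to 13.0 RPKM in CpG-STAT3dODN. The part of other cell types and of the libraries of low Fos in the Ube2j1, Ero1lb and Derl3 differences was not tested.

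In the list of other ATF4 and integrated stress response genes, 27 of 32 (84.4%) were above the other 10 libraries in both libraries of low Fos and 0 were below. Over all genes kept by the filter, 23.4% were above and 18.8% below. They included amino acid transporters, enzymes of serine and one-carbon metabolism and aminoacyl-tRNA synthetases. Mthfd2, a mitochondrial folate enzyme, and Nupr1, a stress-induced chromatin protein, were picked as examples after their values were seen. Mthfd2 was at 124 RPKM in PBS 4 and 133 RPKM in CpG-STAT3dODN 4, and between 18.4 and 47.6 RPKM in the other 10. Nupr1 was at 25.7 and 27.5 RPKM, and between 2.77 and 6.96 RPKM in the other 10. In the lists of other ER folding genes and other degradation genes, 7 of 41 (17.1%) and 8 of 22 (36.4%) were above in both. Below in both were 4 (9.76%) and 2 (9.09%).

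**Figure D5:**
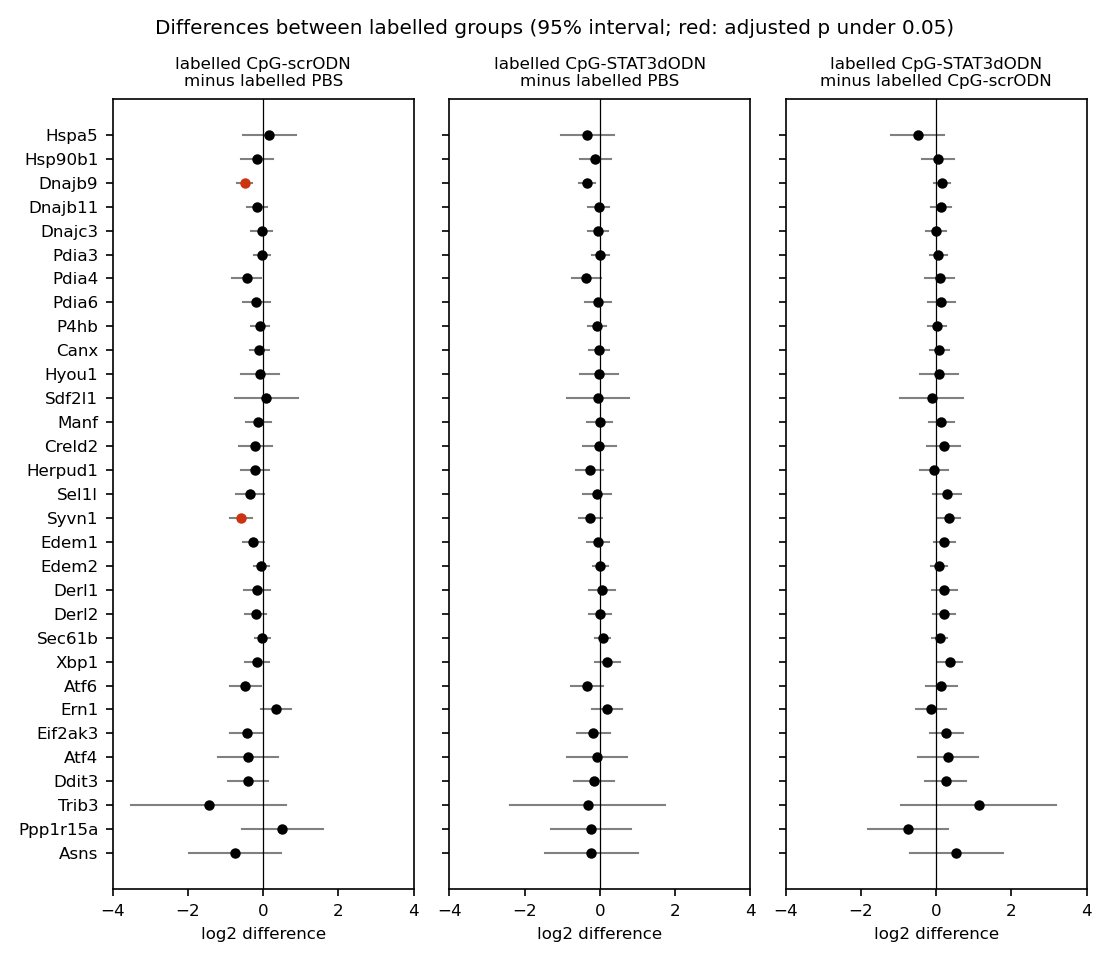
Log2 differences with 95% intervals for the 31 genes tested, in 3 panels, one for each comparison of labelled groups. Red points have a limma adjusted p under 0.05. Only Dnajb9 (-0.50) and Syvn1 (-0.59) in the CpG-scrODN minus PBS panel are red, and the intervals are widest in the ATF4 branch.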

How the data were processed

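The deposited values are RPKM, 1 file for each of 12 libraries, used as the authors deposited them. The submitters' processing notes name mm10, TopHat 1.3.1 and Partek 6.12.0713 without their roles. The annotation, filters and counting rule behind them are not given here. Groups came from the sample labels. Values were analysed as log2(RPKM + 1), which understates changes of low genes, with a filter of at least 1 RPKM in at least 4 libraries (10886 genes kept). One limma 3.58.1 model in R 4.3.3, with an intensity trend, held all 12 libraries in 3 groups, and two-sided p-values were adjusted by Benjamini-Hochberg over all genes kept. The model was run on simulated data with independent values and an equal spread in all libraries. In the measured data the gene-by-gene library weights ran from 0.125 in CpG-STAT3dODN 4 to 5.05 in CpG-STAT3dODN 1. That run therefore checks the code and does not measure error rates for these libraries. Of low values, 65.6% to 68.8% came within 0.05 of whole reads, too few to recover reads, and no count model was used. The 12 files held no identical pair. Members and lists were chosen with earlier results of these data known. Values by library are given for called members, Hspa5, Xbp1, Atf4, Ddit3, Chac1 and the 2 largest differences per class and comparison, and other pathway genes are named where called. Alternatives changed the pseudocount, filter, scaling, samples fitted, block and weights. Gene coordinates come from the RefSeq annotation of GRCm38, which matched all 32 genes.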

Additional observations from a re-analysis of the deposited data

Results flagged for a closer look

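In 93 sets of 4 libraries (31 genes in 3 labelled groups), the most extreme library was compared with the others of its group. In 9 of them its gap to the nearest library, divided by the range of the group on the log2(RPKM + 1) scale, was above Dixon's 95% critical value for 4 samples, where chance gives about 1 in 20. CpG-STAT3dODN 4 stood apart in 5: Hspa5 was lowest there at 183 RPKM, while Herpud1 at 63.6, Atf6 at 15.1, Eif2ak3 at 8.41 and Atf4 at 393 RPKM were highest. PBS 4 stood apart in 2, with Sel1l highest at 19.4 RPKM and Ppp1r15a lowest at 44.0 RPKM. These are the libraries of low Fos. On RPKM, a scale added after seeing the data, 9 sets passed, of which 7 are the same: Trib3 and Asns in CpG-STAT3dODN 4 came in, and Hspa5 there and Ppp1r15a in PBS 4 dropped out. In CpG-scrODN, Dnajc3 was highest in replicate 2 at 16.9 RPKM and Atf6 highest in replicate 4 at 10.8 RPKM.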

How the results depend on the processing

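In CpG-scrODN against PBS, 2 genes of the set were called. The count was 1 with quantile normalization (Syvn1), 1 when the 2 groups were fitted alone (Dnajb9), 5 with library quality weights, and 1 to 2 with single libraries left out. The quality weights stopped before they converged, so gene-by-gene weights were added after seeing the data and also gave 5. With the gene-by-gene weights, 1756 of all genes (16.1%) were called in this comparison. In CpG-STAT3dODN against PBS the count was 0, 3 with either kind of weights, and 0 with each library left out. Over all genes that comparison gave 3 higher and 199 lower, 1248 called with library quality weights and 840 with gene-by-gene weights. In CpG-STAT3dODN against CpG-scrODN it was 0, 2 with library quality weights, 1 with gene-by-gene weights, and 0 with each library left out, where all genes gave 0, 607 and 129. Over all genes, CpG-scrODN against PBS gave 12 higher and 440 lower, 75 and 318 with quantile normalization, 40 and 388 with size factors, and 730 and 1082 with library quality weights. As deviations from their group means, same-numbered libraries correlated between -0.341 and 0.817, over 0.1 in 5 of 12 pairs. Of 12 libraries, 3 correlated best with their own number. The highest value was that of PBS 4 and CpG-STAT3dODN 4, the 2 libraries of low Fos. CpG-scrODN 4 correlated at 0.193 with PBS 4 and at 0.151 with CpG-STAT3dODN 4. These correlations do not settle whether the replicate numbers pair the samples. With the replicate number as a block, 3, 0 and 0 genes of the set were called, beside 4.8%, 1.96% and 0% of all genes. No direction of a called gene was reversed. Depth is an estimate, and genes near 1 RPKM are the least precise.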
